A study of Mus musculus with 15 samples.

Results

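Splenic regulatory T (Treg) cells that had switched on an *Il10* reporter were compared with Treg cells that had not. The 4 libraries concerned, 2 of IL-10+ Treg cells (Treg10+) and 2 of IL-10- Treg cells (Treg10-), were taken by their titles from the 15 RNA-seq libraries of the series analysed here, whose other libraries are of lung group 2 innate lymphoid cells (ILC2). All 4 came from 10BiT*Foxp3*GFP dual reporter mice. In these animals a bacterial artificial chromosome holding *Il10* also carries the Thy-1.1 coding sequence, so that Thy-1.1 at the cell surface reports *Il10*, and GFP is expressed from the *Foxp3* locus. Both groups carried both reporters and came from mice injected intraperitoneally with IL-33 daily for 4 days, an alarmin that expands ILC2 and ST2+ Treg cells, so no Treg cells of uninjected mice stand beside them. The mice were 6 to 14 weeks old and of either sex, and 5 mice were pooled per experiment. The library names carry the tags 10Bitspleen and SpleenTreg, 1 IL-10+ and 1 IL-10- library each. The sources used here do not say that a tag marks a shared sort, so the libraries were not treated as pairs. The limma p-values rest on the spread between 2 libraries a group, drawn toward the spread of other genes of similar level. The source field of the labels names lung ILC2 for these samples, whereas title, description and cell type field name splenic Treg cells.

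Treg cells are CD4 T cells that carry the transcription factor FOXP3 and restrain immune responses. Central or resting Treg cells recirculate through lymphoid organs with CCR7 and keep TCF-1 (*Tcf7*), whereas effector Treg cells lose these, gain receptors for inflamed tissue and are known to use BLIMP-1 (*Prdm1*). IL-10 is one of the soluble means by which Treg cells restrain myeloid and T cells, and it signals through STAT3.

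Values are FPKM, in which the reads on a gene are divided by its length and by the size of the library. They do not say how many reads lie behind a value or how deep each library was. Pairs of values below give the 10Bitspleen library first and the SpleenTreg library second. Log2 fold changes are of IL-10+ over IL-10- cells after values below 1 FPKM were raised to 1, which understates changes of low genes. Between 10514 and 10756 genes lay above 1 FPKM in each library, and the first principal component (58% of the variance) separated the groups, the second (29.9%) the tags. In these bulk libraries a change in the share of a cell type and a change of RNA per cell cannot be told apart.

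The labels were checked first. *Foxp3* was at 112 and 112 FPKM in IL-10+ and at 88.4 and 104 FPKM in IL-10- cells, and at no more than 0.0955 FPKM in the 3 libraries of IL-10+ ILC2. *Cd4* lay between 172 and 195 FPKM in all 4 Treg libraries, and *Cd3e*, *Il2ra*, *Ikzf2*, *Ctla4*, *Thy1* and *Ptprc* did not pass the test between the groups. The libraries are thus of FOXP3+ CD4 T cells by these markers. *Cd8a* did not exceed 1.03 FPKM, whereas *Cd8b1* lay between 12.8 and 16.3 FPKM in every library.

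The reporter sorted the gene it reports. *Il10* (chromosome 1, 131019845 to 131024970, GRCm38) was at 31.0 and 24.2 FPKM in IL-10+ cells and at 0.572 and 1.06 FPKM in IL-10- cells, a log2 fold change of 4.74 ± 0.24 (SE, adjusted p = 0.00181 in limma). Since the cells were gated on an *Il10* reporter, this value checks the sort and is no finding. *Il10* was the protein-coding gene with the largest increase of all genes tested.

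Of 10837 genes tested, 98 (0.904%) were higher and 50 (0.461%) lower in IL-10+ Treg cells where the change was 2 times or more and the limma p, adjusted by Benjamini and Hochberg, lay under 0.05, which is what higher, lower, rose, fell and passed mean below. All 148 had groups that did not overlap, as had 23% of all genes tested in the upward and 20% in the downward direction. The median change of all genes was 0.00629 on the log2 scale, and 5527 of the 10837 had a change above 0. An unadjusted p under 0.05 was found for 1524 genes. The calls rest on all 4 libraries. With any library left out (the IL-10+ or IL-10- library of either tag), limma called 0 genes and left between 791 and 1187 at an unadjusted p under 0.05. Without the filter on low values 4 were higher and 2 lower. In an equal-variance test gene by gene, the kind of test the study's methods name, adjusted here over all genes, 0 passed on floored FPKM or on log2 values, with 1093 and 1111 at an unadjusted p under 0.05. In 12 of the 98 and 10 of the 50 the other group lay at or under 1 FPKM in both libraries, so that their changes are set in part by the floor.

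**Figure D1:**
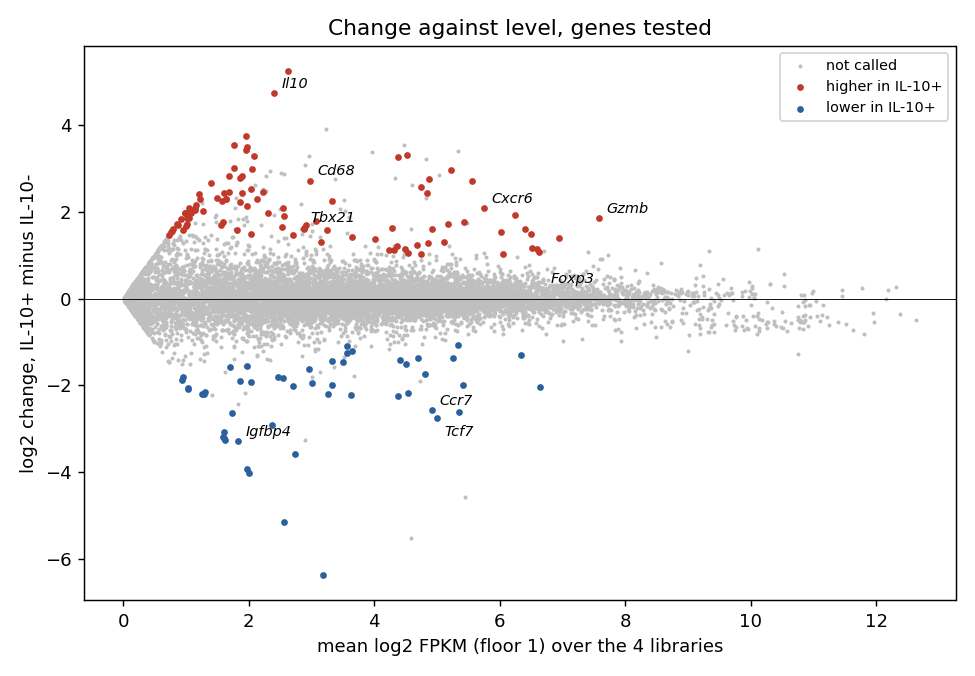
Log2 change between IL-10+ and IL-10- Treg cells (vertical) against the mean log2 FPKM, floored at 1, over the 4 libraries (horizontal) for the 10837 genes tested. Each point is a gene, the 98 red genes were higher and the 50 blue genes lower, and the named genes include *Il10* at 4.74 and *Tcf7* at -2.75; the straight edge at the left is the floor.

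Several genes by which Treg cells recirculate through lymphoid organs and stay at rest fell in IL-10+ cells. *Ccr7*, the receptor that brings T cells into the T zones of lymph node and spleen, fell from 79.2 and 69.0 FPKM to 12.5 and 12.4 FPKM (log2 -2.57 ± 0.14, adjusted p = 0.00209). *Tcf7* (chromosome 11, 52252604 to 52282571), which encodes TCF-1, a transcription factor of naive and memory T cells, fell from 78.4 and 88.4 FPKM to 8.72 and 17.6 FPKM (log2 -2.75 ± 0.31, adjusted p = 0.0178). Both IL-10+ libraries lay far below both IL-10- libraries, and the IL-10+ pair itself was wider for *Tcf7* than for *Ccr7*. *Id3*, an inhibitor of E proteins, fell from 215 and 192 to 50.2 and 49.2 FPKM (log2 -2.03 ± 0.13, adjusted p = 0.00333). *Bcl2*, which keeps resting lymphocytes alive, fell from 16.4 and 15.2 to 3.16 and 5.37 FPKM (log2 -1.94 ± 0.29, adjusted p = 0.0388).

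Of the 23 tested members of the list of central Treg and quiescence genes, 9 fell, 0 rose and 14 did not pass. Of all genes 0.461% fell and 0.904% rose. This list and those below were chosen with earlier results of these data known, so their counts beside these shares are a description only. The median of the list was -0.97 against 0.00629 over all genes. The other 5 that fell were *Igfbp4*, which encodes an insulin-like growth factor binding protein (12.2 and 10.2 to 1.05 and 1.24 FPKM), *Ly6c1*, *Evl*, an actin regulator, *Dapl1* and *Treml2*. *Ly6c1* went from 122 and 84.0 to 18.4 and 14.9 FPKM, while its near-identical neighbour *Ly6c2* was at 64.1 and 45.3 FPKM in IL-10+ and at 29.0 and 24.1 FPKM in IL-10- cells without passing (adjusted p = 0.073). How the authors' counting split reads between these copies is not given in the sources used here. Members with the same sign that did not pass included *S1pr1*, the receptor for egress, at 98.3 and 106 against 151 and 162 FPKM, and *Klf2*, which controls it, at 181 and 202 against 235 and 302 FPKM (adjusted p = 0.278). *Lef1*, the partner of TCF-1, had an adjusted p of 0.047 but a log2 change of -0.74, under the fold asked for. *Ets1*, *Myb* and *Il7r* changed by 0.17 or less on the log2 scale. Of the 13 tested KLF and egress genes, *Ccr7* alone passed, and the median was -0.37.

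**Figure D2:**
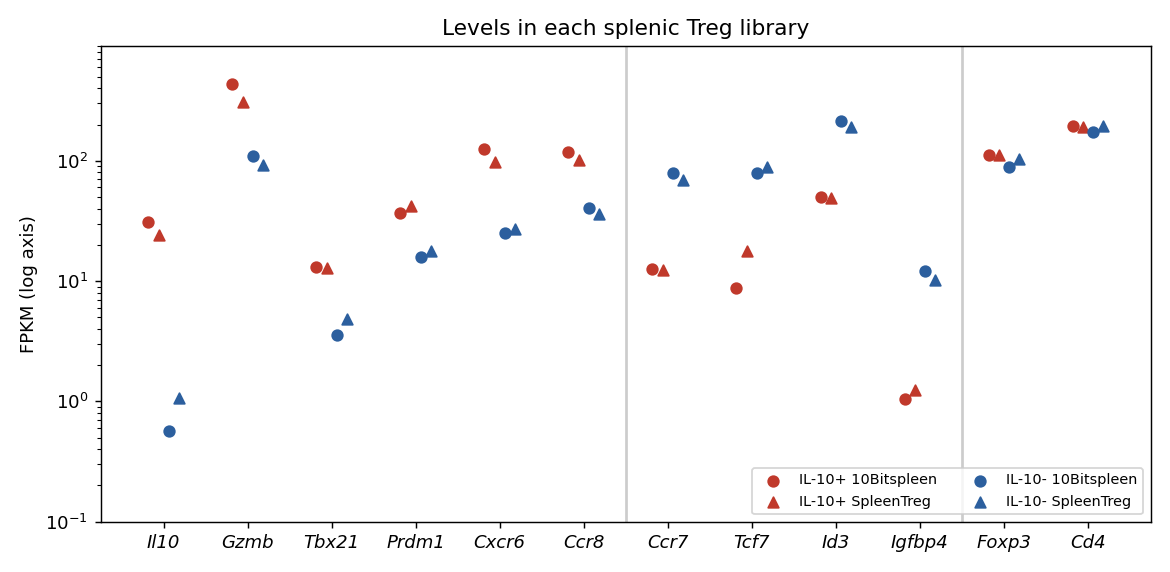
FPKM on a log axis of 12 genes in each of the 4 splenic Treg libraries, with colour for the group and shape for the tag. The 6 genes on the left lay higher in both IL-10+ libraries, the next 4 lower, and *Foxp3* and *Cd4* on the right differed little, with *Foxp3* between 88.4 and 112 FPKM.

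Most chemokine receptors that passed were higher, unlike *Ccr7*. Of 18 tested, 8 rose, 1 fell and 9 did not pass, against 0.904% and 0.461% of all genes, with a median of 0.43. *Cxcr6*, the receptor for CXCL16 on tissue T cells, rose from 25.2 and 26.9 to 126 and 98.0 FPKM (log2 2.09 ± 0.16, adjusted p = 0.00602). *Ccr8*, a receptor of Treg cells in tissues, rose from 40.3 and 36.3 to 119 and 102 FPKM (log2 1.53 ± 0.14, adjusted p = 0.00883). *Cxcr3*, the receptor through which type 1 inflammation draws T cells, rose from 60.2 and 70.5 to 141 and 147 FPKM (log2 1.14 ± 0.14, adjusted p = 0.0185). In each of the 3 the IL-10+ libraries lay above both IL-10- libraries. *Ccr10*, a receptor of skin-homing T cells and of plasma cells, rose from low levels (1.20 and 2.35 to 8.17 and 7.49 FPKM). *Ccr1* (3.18 and 2.94 to 13.9 and 9.53 FPKM), *Ccr2* (65.9 and 70.3 to 148 and 138 FPKM) and *Ccr3* (log2 1.15) also rose; *Ccr1* and *Ccr2* are known on monocytes too. Those that did not pass include *Ccr4* at 63.7 and 64.8 against 52.8 and 53.4 FPKM, *Ccr6* (log2 -0.33), *Cxcr4* (log2 -0.44) and *Cxcr5*, the receptor of follicular T cells, at 19.9 and 21.0 against 39.1 and 36.7 FPKM (log2 -0.89).

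Of 36 tested genes of effector Treg cells 9 rose and 0 fell, against 0.904% and 0.461% of all genes. A change above 0 was found in 32 of them, against 5527 of all 10837 genes tested, with a median of 0.70. The list and that of chemokine receptors share members. Besides chemokine receptors such as *Cxcr6*, *Ccr8*, *Cxcr3* and *Ccr2*, those that rose were *Prdm1*, *Id2*, *Itgae* and *Fgl2*. *Prdm1*, which encodes BLIMP-1, rose from 15.7 and 17.7 to 37.1 and 42.2 FPKM (log2 1.25 ± 0.15, adjusted p = 0.0196). *Id2*, an E protein inhibitor like *Id3* but of effector cells, rose from 61.9 and 60.6 to 146 and 128 FPKM (log2 1.16 ± 0.13, adjusted p = 0.0162), so the 2 inhibitors moved apart. *Itgae*, the CD103 chain that binds E-cadherin on epithelium, rose from 47.9 and 44.9 to 103 and 86.9 FPKM (log2 1.03 ± 0.14). Of the 24 tested members of the integrin and adhesion list it alone rose, and 0 fell; *Itgad*, an integrin chain of macrophages outside the list, rose as well (0.149 and 1.10 to 6.43 and 6.87 FPKM).

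Several genes well known in effector Treg cells did not pass. *Klrg1*, a receptor of terminally differentiated cells, was at 1158 and 781 against 516 and 376 FPKM (log2 1.11 ± 0.26, adjusted p = 0.124), and passed in the fit of all 10 libraries (adjusted p = 0.0301). *Maf* was at 37.1 and 50.6 against 20.7 and 26.5 FPKM (adjusted p = 0.111), and *Icos* at 316 and 303 against 182 and 195 FPKM (adjusted p = 0.0676). *Il1rl1*, whose product ST2 is the receptor of IL-33, was at 39.9 and 31.4 against 21.6 and 20.6 FPKM (log2 0.75 ± 0.17, adjusted p = 0.101), and *Gata3* at 103 and 115 against 59.4 and 72.2 FPKM (adjusted p = 0.0781). In these 5 genes both IL-10+ libraries lay above both IL-10- libraries. *Itgb1* ran the other way, at 83.1 and 100 against 176 and 186 FPKM, with an adjusted p of 0.0374 and a log2 change of -0.98, just under the fold asked for. The S100, annexin and galectin genes, abundant in effector cells, gave 0 calls among 21 tested and a median of 0.14.

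**Figure D3:**
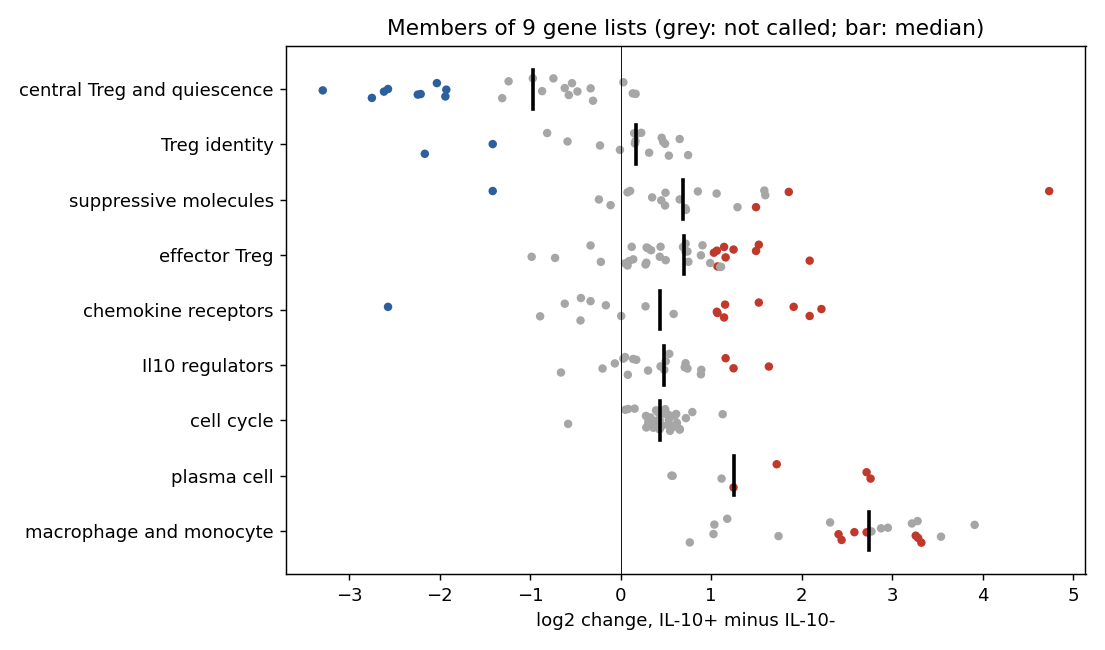
Log2 change between IL-10+ and IL-10- Treg cells of the tested members of 9 gene lists. Each point is a gene (red higher, blue lower, grey not called) and the black bar is the median, which runs from -0.97 in the central Treg list to 2.75 in the macrophage and monocyte list.

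Few Treg identity genes passed. Of 18 tested, 0 rose and 2 fell, against 0.904% and 0.461% of all genes, with a median of 0.17. *Gpr83*, a receptor of resting Treg cells, fell from 52.0 and 46.4 to 8.15 and 14.8 FPKM (log2 -2.16 ± 0.28, adjusted p = 0.0222). *Lrrc32*, which encodes GARP and holds latent TGF-beta at the surface, fell from 30.9 and 39.4 to 10.7 and 16.1 FPKM (log2 -1.41 ± 0.24, adjusted p = 0.0497). The other 16 included *Nrp1* at 28.7 and 40.7 against 57.7 and 62.5 FPKM (adjusted p = 0.113), *Folr4*, and *Ikzf2*, which encodes HELIOS, at 29.4 and 35.2 against 29.1 and 28.6 FPKM. *Tnfrsf4*, which encodes OX40, was the most abundant at 1041 and 754 against 785 and 533 FPKM and did not pass (adjusted p = 0.538).

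Among the molecules by which Treg cells suppress, 3 of 20 tested rose (*Il10*, *Gzmb* and *Fgl2*) and 1 fell (*Lrrc32*), against 0.904% and 0.461% of all genes. A change above 0 was found in 17, against 5527 of all 10837 genes tested, with a median of 0.68. *Gzmb* (chromosome 14, 56258858 to 56262260), the protease of cytotoxic granules, rose from 110 and 92.7 to 435 and 309 FPKM (log2 1.86 ± 0.20, adjusted p = 0.0136). Its change is as large in a fit of all 10 libraries of reporter mice, where the adjusted p was 0.276. *Fgl2*, a secreted fibrinogen-like protein that Treg cells use and macrophages also make, rose from 58.7 and 49.6 to 189 and 122 FPKM (SE of the log2 change 0.22, adjusted p = 0.0386). *Havcr2*, which encodes TIM-3, missed the threshold at 12.9 and 12.4 against 3.37 and 5.26 FPKM (adjusted p = 0.0519). *Gzma* was at 58.8 and 29.5 against 16.6 and 11.4 FPKM (adjusted p = 0.0935), *Ctla4* at 403 and 319 against 246 and 212 FPKM, and *Ebi3*, a chain of IL-35, at 79.7 and 65.3 against 54.1 and 48.7 FPKM. Its partner *Il12a* lay under 1 FPKM in all 4 libraries and was not tested. The IL-10 receptor chains did not pass, with *Il10ra* at 49.7 and 47.1 against 33.9 and 37.0 FPKM and *Il10rb* between 77.0 and 94.3 FPKM.

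In the list of *Il10* regulators, most of them transcription factors, 3 of 21 tested rose and 0 fell. The shares of all genes were 0.904% and 0.461%, and the median of the list was 0.48. *Tbx21* (chromosome 11, 97098007 to 97115331), which encodes T-bet, the regulator of type 1 responses, rose from 3.55 and 4.87 to 13.1 and 12.8 FPKM (log2 1.64 ± 0.24, adjusted p = 0.0387). The other 2 were *Prdm1* and *Id2*. *Maf*, *Ahr* (10.7 and 11.5 against 5.92 and 7.83 FPKM), *Irf4* (16.4 and 22.6 against 11.9 and 15.6 FPKM), *Batf* and *Nfil3* lay higher in both IL-10+ libraries without passing. *Stat3* changed by 0.17 on the log2 scale and *Eomes* did not exceed 1.18 FPKM. The type 1 and cytotoxic genes gave 4 rises among 22 tested (*Gzmb*, *Tbx21*, *Ccl5* and *Cxcr3*) and 0 falls, with a median of 0.22. *Ccl5*, the chemokine RANTES, rose from 49.1 and 48.5 to 160 and 137 FPKM (log2 1.61 ± 0.13, adjusted p = 0.00698), a call lost in the fit of all 10 libraries (adjusted p = 0.139). *Ifng* did not exceed 1.83 FPKM and was too low to be tested, as were *Il4*, *Il5*, *Il13* and *Il17a*.

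The promoters of *Tbx21* and *Tcf7* are shown with those of the lower genes that hold a TCF/LEF motif. This motif, the letters that TCF-1 is known to bind, was used since *Tcf7* itself fell. Sequences are the 250 bases before the start of transcription, 5′ to 3′, from RefSeq (GRCm38.p6); capitals mark a motif match on either strand.
Tbx21 (chr11:97115332-97115581, minus strand): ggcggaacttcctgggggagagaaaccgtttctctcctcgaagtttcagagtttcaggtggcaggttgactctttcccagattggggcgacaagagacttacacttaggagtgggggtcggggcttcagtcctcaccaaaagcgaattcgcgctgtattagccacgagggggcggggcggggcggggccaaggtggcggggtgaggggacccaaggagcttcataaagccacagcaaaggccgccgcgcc
Tcf7 (chr11:52282596-52282845, minus strand): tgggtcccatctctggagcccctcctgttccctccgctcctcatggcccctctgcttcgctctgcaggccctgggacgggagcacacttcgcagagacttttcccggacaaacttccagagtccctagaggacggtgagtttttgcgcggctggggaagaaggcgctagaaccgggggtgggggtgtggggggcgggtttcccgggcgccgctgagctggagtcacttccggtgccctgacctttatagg
Gpr18 (chr14:121915889-121916138, minus strand): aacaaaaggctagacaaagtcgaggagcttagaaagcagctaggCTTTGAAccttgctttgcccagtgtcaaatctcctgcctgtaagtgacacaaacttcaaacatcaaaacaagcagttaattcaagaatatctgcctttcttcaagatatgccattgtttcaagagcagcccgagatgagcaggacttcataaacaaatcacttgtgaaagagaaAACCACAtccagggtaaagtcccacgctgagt
St8sia6 (chr2:13793521-13793770, minus strand): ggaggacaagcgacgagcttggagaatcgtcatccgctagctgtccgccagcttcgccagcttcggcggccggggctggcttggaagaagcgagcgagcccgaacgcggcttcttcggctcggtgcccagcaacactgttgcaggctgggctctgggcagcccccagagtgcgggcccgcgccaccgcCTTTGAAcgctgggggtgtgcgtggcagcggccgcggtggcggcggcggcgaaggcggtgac
Trat1 (chr16:48772063-48772312, minus strand): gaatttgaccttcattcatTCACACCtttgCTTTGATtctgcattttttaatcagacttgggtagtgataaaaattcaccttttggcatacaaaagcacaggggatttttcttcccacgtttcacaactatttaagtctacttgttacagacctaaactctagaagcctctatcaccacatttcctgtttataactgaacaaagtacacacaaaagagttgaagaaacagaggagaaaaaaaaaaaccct
The motifs searched were TCF/LEF (CTTTGAA or CTTTGAT), T-box (GGTGTGA), PRDM1 (GAAAGTG) and RUNX (TGTGGTT), none of which contains another. A promoter was found for 8055 of the genes tested, 72 of the 98 higher and 34 of the 50 lower genes. TCF/LEF letters stood in 3 of the 34 lower promoters (8.8%), in 5 of the 72 higher ones (6.9%) and in 5.2% of all. In *Trat1*, which encodes an adaptor of the T cell receptor, they lie at -220 to -214 from the start, beside T-box letters at -231 to -225. In *Gpr18*, a lipid receptor gene of lymphocytes, they lie at -206 to -200 with RUNX letters at -32 to -26, and in *St8sia6*, a sialyltransferase gene, at -62 to -56. These 3 genes were picked by the motif after their change was known. *Trat1* fell from 141 and 115 to 55.5 and 48.1 FPKM and *Gpr18* from 65.5 and 57.6 to 22.6 and 24.8 FPKM. T-box letters stood in 4.2% of higher, 5.9% of lower and 2.6% of all promoters, PRDM1 letters in 2.8%, 2.9% and 4.2%, and RUNX letters in 4.2%, 8.8% and 3.3%. The *Tbx21* and *Tcf7* windows hold none of the letters. With counts this small the shares are a description only.

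Of the 14 tested members of the chemokine and cytokine list, 3 rose (*Il10*, *Penk* and *Ccl5*) and 0 fell. The shares of all genes were 0.904% and 0.461%, and the median of the list was 0.20. Outside the list, the chemokine gene *Ccl6* and the cytokine gene *Il18* rose too, by 3.43 and 1.43 on the log2 scale. *Penk*, which encodes the enkephalin precursor and is known in Treg cells of tissues, rose from 45.4 and 33.2 to 170 and 131 FPKM (log2 1.94 ± 0.20, adjusted p = 0.0136). *Lta*, which encodes lymphotoxin alpha, was at 2.93 and 6.35 FPKM in IL-10+ cells against a mean of 15.2 FPKM in IL-10- cells (log2 -1.81 ± 0.38, adjusted p = 0.0881) and *Tnf* at 5.21 and 2.92 against 6.64 and 7.72 FPKM. Neither passed, though in both the groups did not overlap. *Areg*, a growth factor of tissue Treg cells, spread widely at 8.67 and 3.48 against 3.52 and 1.43 FPKM, so the groups overlapped (adjusted p = 0.379).

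Coinhibitory and costimulatory receptors gave 0 rises and 2 falls among 23 tested, against 0.904% and 0.461% of all genes, with a median of 0.31. *Cd96*, a receptor for CD155, fell from 91.0 and 79.3 to 19.1 and 23.7 FPKM (log2 -2.00 ± 0.16, adjusted p = 0.00667), and *Cd160* from 5.71 and 4.86 to 1.20 and 1.10 FPKM (log2 -2.20 ± 0.25, adjusted p = 0.0178). *Tigit*, which binds the same ligand as CD96, was at 179 and 126 against 98.6 and 84.8 FPKM (adjusted p = 0.162), *Pdcd1* at 157 and 128 against 102 and 83.9 FPKM, and *Lag3* at 4.61 and 2.72 against 2.18 and 1.32 FPKM. All 3 lay higher in both IL-10+ libraries without passing. Among the 16 tested TNF receptor genes 0 passed in either direction, while *Tnfsf8*, the ligand of CD30, fell from 9.77 and 7.08 to 1.48 and 1.20 FPKM (log2 -2.64, adjusted p = 0.0136). None of the 9 tested follicular Treg genes passed, and the median there was -0.57.

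Lists that report how strongly cells had been triggered gave no calls. Of 18 T cell receptor response genes tested, 0 passed and the median was 0.12, with *Nr4a1* at 45.9 and 42.2 against 29.5 and 30.4 FPKM (adjusted p = 0.122) and *Egr2* between 8.68 and 10.1 FPKM. Of 20 T cell receptor complex genes 0 passed, with a median of -0.21. Among cell cycle genes 35 of 36 had a change above 0, against 5527 of all 10837 genes tested. In 32 of them the groups did not overlap in that direction, against 23% of all genes. The median of the list was 0.43 and 0 passed. *Mki67* was at 37.9 and 49.7 against 21.7 and 32.0 FPKM (log2 0.72 ± 0.23, adjusted p = 0.221). The groups did not overlap, and the IL-10- SpleenTreg library lay closest to the other group. The inhibitor *Cdkn1b* was the 1 member below 0, at 12.9 and 10.9 against 20.0 and 15.7 FPKM.

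In the IL-2 and STAT5 list (19 tested) and the BCL2 family list (15 tested), *Bcl2* alone passed, falling, with medians of 0.07 and 0.15. Its relatives *Mcl1* and *Bcl2l1* changed by -0.20 and 0.41 on the log2 scale without passing. The TGF-beta list (15 tested) had *Itgae* rise and *Lrrc32* fall. Of 24 interferon-stimulated genes, *Ifitm3* (10.2 and 9.89 to 27.9 and 24.6 FPKM) and *Ifitm1* (0.741 and 0.456 to 4.13 and 3.14 FPKM), membrane proteins that hold back viral entry, rose and 22 did not pass, with a median of 0.20. The shares of all genes that rose or fell were 0.904% and 0.461%. Glycolysis (15 tested), cholesterol synthesis (19), GIMAP (8) and type 2 and type 17 genes (8) had 0 calls and medians of 0.15, 0.24, -0.16 and 0.60. The metallothioneins *Mt1* and *Mt2*, which bind zinc, also rose, by 1.60 and 2.30 on the log2 scale.

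Genes known from other cells of the spleen were among the higher genes. Of 20 macrophage and monocyte genes tested, 7 rose and 0 fell, against 0.904% and 0.461% of all genes. All 20 had groups that did not overlap upward, against 23% of all genes, with a median of 2.75. The list summed to 990 and 1136 FPKM in IL-10+ and to 229 and 363 FPKM in IL-10- cells. *C1qc*, a complement chain of macrophages, rose from 3.54 and 12.7 to 61.5 and 67.1 FPKM (log2 3.26 ± 0.53, adjusted p = 0.0443). *Cd68* rose from 2.18 and 4.34 to 19.0 and 21.5 FPKM (log2 2.72 ± 0.35, adjusted p = 0.0209), and *Emr1*, which encodes F4/80, from 0.900 and 1.83 to 12.9 and 13.5 FPKM. *Spic* and *Slc40a1*, genes of red pulp macrophages, were at 13.1 and 19.7 against 1.12 and 4.27 FPKM and at 82.2 and 90.5 against 4.53 and 19.0 FPKM (adjusted p of 0.0851 and 0.0614). In each of these genes the IL-10- SpleenTreg library lay above the IL-10- 10Bitspleen library. No member of the list was at 0 in an IL-10+ library.

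**Figure D4:**
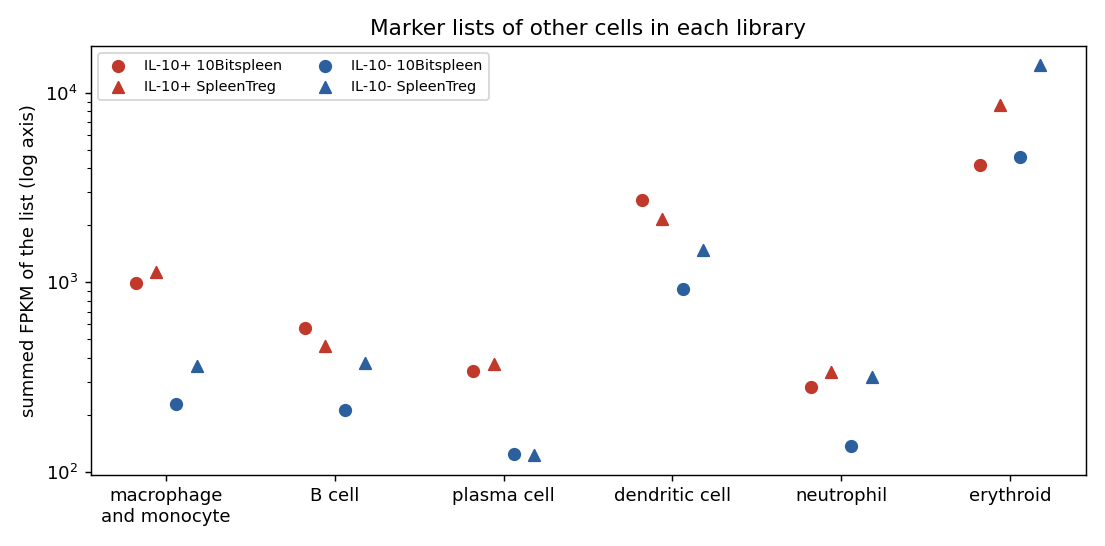
Summed FPKM, on a log axis, of 6 marker lists of other cells in each of the 4 Treg libraries, with colour for the group and shape for the tag. The macrophage and plasma cell sums lie higher in both IL-10+ libraries (990 and 1136 against 229 and 363 FPKM for macrophages), whereas the erythroid sums are higher in both SpleenTreg libraries.

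Of 7 plasma cell genes tested, 4 rose, against 0.904% of all genes. They were *Igj*, the J chain of secreted antibody (17.1 and 19.9 to 118 and 124 FPKM, log2 2.72 ± 0.14, adjusted p = 0.00181), *Mzb1* (8.98 and 14.1 to 72.8 and 79.8 FPKM), *Derl3*, and *Prdm1*, which effector Treg cells use as well. *Sdc1*, which encodes CD138, was at 1.86 and 2.53 against 0.443 and 0.651 FPKM, and *Tnfrsf17*, which encodes BCMA, was at 0 and 0.0709 FPKM in IL-10- cells. Neither passed. The list summed to 341 and 370 against 124 and 123 FPKM. B cell genes were above 0 in 12 of 12, against 5527 of all 10837 genes tested, with 0 passing and a median of 0.87. The B cell list summed to 573 and 459 against 213 and 375 FPKM. The dendritic cell list, most of it MHC class II, had 9 of 9 above 0, 0 passing and a median of 0.99 (*Cd74* 1838 and 1475 against 569 and 976 FPKM). Among 11 neutrophil genes *Mmp9* and *Mpo* rose (median 0.54), and among 3 basophil, mast cell and eosinophil genes *Ear2* rose, from 0.722 and 1.13 to 18.8 and 10.8 FPKM. The neutrophil list summed to 282 and 336 against 138 and 317 FPKM.

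Erythroid sums were higher in both SpleenTreg libraries, with 0 of 13 entries passing and 4155 and 8677 against 4606 and 13954 FPKM. The CD8 T cell (2 tested) and NK cell (4 tested) lists had 0 calls and sums from 13.7 to 19.0 FPKM. *Pecam1* was the only stromal and endothelial gene tested and did not pass. Together the lists of other cells hold 14 of the 98 higher genes and 0 of the 50 lower ones. Without their genes 10755 of the 10837 tested genes remained, of which 84 were higher and 50 lower. This comparison was chosen after these values were seen. Of the 98, 66 were in none of the lists, among them further genes known in macrophages and monocytes: *Slc11a1* (0.935 and 0.764 to 10.8 and 12.4 FPKM), *Trf*, *Ccl6*, *Wfdc17*, *Clec4a3*, *Tgfbi*, *Fcgr3*, *Emr4* and *Adamdec1*. The 84 thus still hold genes known from other cells. The study's methods state a high sort purity in a passage on lung cells, and the gates drawn for the splenic cells were not used here. The part of other cells in the rises of *Fgl2*, *Ccr1*, *Ccr2*, *Prdm1* and of genes at similar levels was not tested.

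Of the 50 lower genes, 37 were in none of the lists. *Nsg2*, a neuronal vesicle gene also transcribed in T cells, fell from 23.8 and 22.8 to 1.47 and 2.54 FPKM (log2 -3.59, adjusted p = 0.00755). *Lad1* fell from 9.46 and 9.04 to 0.702 and 0.869 FPKM (log2 -3.21) and *Gsta4*, a glutathione transferase, from 16.3 and 12.4 to 1.52 and 2.33 FPKM (log2 -2.91). *Gata1*, known from erythroid cells, fell from 13.1 and 14.3 to 3.66 and 5.48 FPKM, while no member of the erythroid list passed; it was singled out after its value was seen. The largest falls are listed at 0 or nearly so in IL-10+ cells: *Mir135a-1*, *Snora7a*, *Snora17*, *Snora43* and *Snora81*, loci of short RNAs, were at 0 in both IL-10+ libraries. *Mir135a-1* was at 86.2 and 79.6 FPKM and *Snora7a* at 90.1 and 13.9 FPKM in IL-10- cells. *Mir215* was the reverse, at 94.0 and 15.3 FPKM in IL-10+ and at 0 in both IL-10- libraries. These loci are short (*Mir215* spans 111 bases), their FPKM report the locus and not the mature RNA, and how many reads lie behind them is not known, so no fold is given. *Amd1* (17.1 and 13.7 FPKM in IL-10- cells, under 1 FPKM in both IL-10+ libraries) has a near-identical copy and is uncertain for that reason.

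The same reporter separated IL-10+ ILC2 (ILC210, 3 libraries) from IL-10- ILC2 (ILC2act, 3 libraries) of lungs of IL-33-injected reporter mice, in the same table. The change in Treg cells minus that in ILC2 was tested in a limma fit of these 10 libraries over 12475 genes: 195 (1.56%) differed upward and 815 (6.53%) downward by at least 1 on the log2 scale. Of the 148 genes called in Treg cells, 82 had a change that differed from that in ILC2, 47 of the 98 higher and 35 of the 50 lower genes. In 22 of the 82 every ILC2 value lay at or under 1 FPKM, so that the difference repeats the change in Treg cells, and 60 remain without them. In ILC2 1092 genes (8.75%) were higher and 124 (0.994%) lower in that fit. Of the 98 genes higher in IL-10+ Treg cells 40 were also higher in ILC210 and 3 lower, and of the 50 lower genes 5 were also lower and 5 higher.

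*Il10*, on whose reporter both cell types were sorted, was at 113 to 155 FPKM in ILC210 and at 8.91 to 16.0 FPKM in ILC2act. *Ccr7* did not pass in ILC2 (8.77 to 17.5 FPKM in ILC2act, 11.2 to 21.0 FPKM in ILC210), and the difference was -2.71 ± 0.44 (adjusted p = 0.00317). *Tcf7* fell in both cell types, to 10.7 to 15.1 FPKM in ILC210 from 39.5 to 45.5 FPKM in ILC2act, and the difference of its changes did not pass (-1.05 ± 0.36, adjusted p = 0.118). *Tbx21* lay under 1 FPKM in all 6 ILC2 libraries, so its difference of 1.64 is the change in Treg cells. *Gzmb* was higher in ILC210 as well, at 9.80 to 50.3 against 1.15 to 7.56 FPKM, with no difference that passed (-1.19 ± 1.07, adjusted p = 0.644).

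**Figure D5:**
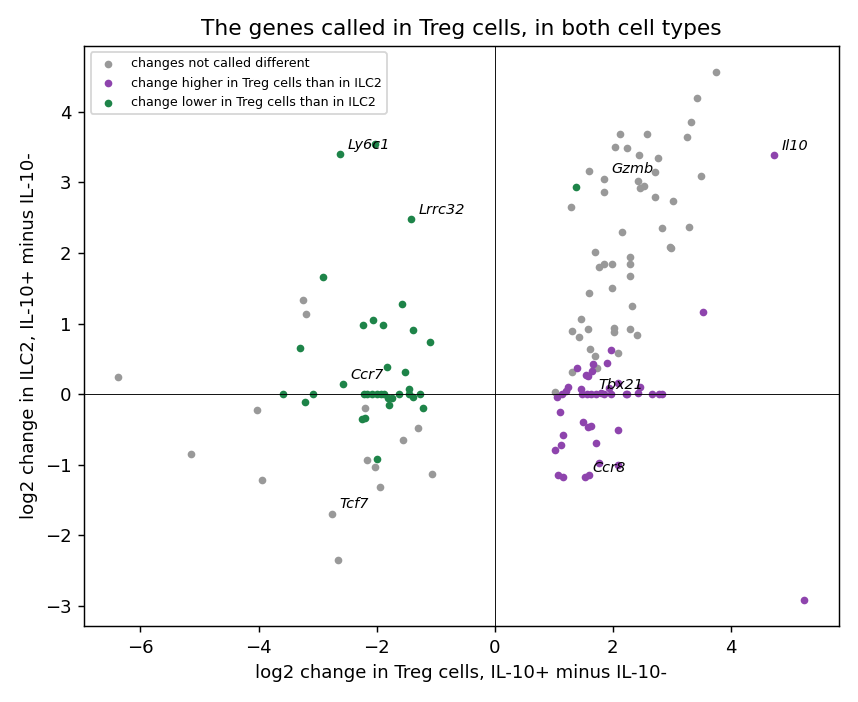
Log2 change in ILC2 (vertical, IL-10+ over IL-10-) against that in Treg cells (horizontal) of the 148 genes called in Treg cells, each a point. Colour marks the 82 genes whose changes differed between the cell types, among them *Ly6c1* at -2.62 in Treg cells and 3.40 in ILC2; points on the horizontal line were at or near the floor, or unchanged, in ILC2.

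By list, against 1.56% of all genes upward and 6.53% downward, 15 of 23 central Treg genes, 15 of 36 effector Treg genes and 10 of 18 chemokine receptors changed differently from ILC2. The median of the central Treg list was 0.14 in ILC2 against -0.97 in Treg cells. *Ly6c1* was at 228 to 287 FPKM in ILC210 and at 21.6 to 27.1 FPKM in ILC2act, the reverse of its order in Treg cells. *Klf2* rose in ILC210 (151 to 177 against 36.1 to 54.9 FPKM) and did not pass in Treg cells, with a difference of -2.40 ± 0.25 (adjusted p = 0.000319). *Lrrc32* also ran opposite, at 3.61 to 7.85 FPKM in ILC210 and at 0.214 to 0.528 FPKM in ILC2act. Its difference was -3.89 ± 0.44, a size that the floor sets in part. *Ccr8* was lower in ILC210 (359 to 604 FPKM) than in ILC2act (799 to 1179 FPKM), and with its rise in Treg cells the difference was 2.70 ± 0.33 (adjusted p = 0.000694). *Ccr2* and *Id2* differed in the same sense, by 2.21 and 1.73. In the macrophage list 4 of 20 differed, 19 had a change above 0 in ILC2 and 15 were higher there, against 8.75% of all genes. The median of the list was 2.52 in ILC2 against 2.75 in Treg cells. In the plasma cell list 3 of 7 differed and 5 had a change above 0 in ILC2. *Igj* and *Mzb1* were higher in ILC210 too, by 3.14 and 3.34 on the log2 scale, and their differences did not pass. In the cell cycle list 1 of 36 differed and 32 had a change above 0 in ILC2, with a median of 0.23 there. The share of all genes with a change above 0 in ILC2 was not counted, so these list counts have no baseline.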

How the data were processed

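RNA of sorted splenic Treg cells was made into libraries with the SMARTer Ultra Low Input kit and Nextera indices and read on a NextSeq 500 (75 bp single-end). The authors aligned reads to GRCm38 with TopHat2 2.1.0 and deposited FPKM values per gene from Cufflinks 2.2.1, in a table that also holds ILC2 libraries; the methods name GENCODE annotation. Entries with the LOWDATA mark (312) or a missing value (5) were left out, 0.001 was read as 0, and 23529 were kept, 26 of them with date-like symbols. Per the labels, about 10000000 reads were made per library on average; the depth of each library is not in the deposited FPKM, so no counting interval was given.

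Values below 1 FPKM were raised to 1 before log2 was taken. Genes above 1 FPKM in at least 2 of the 4 libraries entered limma 3.58.1 in R 4.3.3, with lmFit and a trended eBayes (2 residual degrees of freedom). The difference from ILC2 was a contrast over 10 libraries. Members, the 37 gene lists and the tests were chosen with earlier results of these data known. Genes were named by rule: the 5 markers, 8 label checks, the 15 largest called changes each way, and in each list up to 4 called members and 2 abundant others; other list members account for their list, and genes named outside the rule are *Trat1*, *Gpr18*, *St8sia6*, *Gata1*, *Mt1*, *Mt2* and *Itgad*, and the 8 of the closing observations. Predicted genes were counted and not named, and a few list members are counted with their list but not reported here by name. Of 556 list genes, 23 had no entry and 10 were matched by an older symbol. Alternatives were other offsets, scalings and filters, no fold threshold, a fit of all 10 libraries, per-gene tests, the tag as a block, each library left out, and, added after the values were seen, the counts without other cells' genes.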

Additional observations from a re-analysis of the deposited data

Results flagged for a closer look

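The change between IL-10+ and IL-10- cells differed between Treg cells and ILC2 for 41 genes named by rule, in the limma contrast of the 10 libraries. The threshold was an adjusted p under 0.05 and at least 1 on the log2 scale, as for 1.56% of all genes upward and 6.53% downward. Of the 41, 31 were called in Treg cells. Other genes named in the text were not counted, though some also differed, among them *Id3*, *Ccr3*, *Gpr18*, *Itgad*, *Asb2* and *Arnt2*. Values are the Treg change minus the ILC2 change on the log2 scale. *Klf2*, *S1pr1*, *Tnfrsf4*, *Klrg1*, *Cd3e*, *Beta-s*, *Ly6d*, *Lyz2*, *Pecam1* and *Sdc1* did not pass in Treg cells. *Cd3e* changed by 0.06 in Treg cells and by -2.01 in ILC2, and *Tnfrsf4* by 0.45 and -1.52. In ILC2 *Cd3e* was low, at 0.921 to 2.53 FPKM in ILC210 and 4.35 to 6.82 FPKM in ILC2act, so the floor sets that change in part.

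In the list of central Treg and quiescence genes the difference was -6.01 for *Ly6c1*, -3.95 for *Igfbp4*, -2.71 for *Ccr7*, -2.40 for *Klf2*, -1.89 for *Evl* and -1.67 for *S1pr1*. *Id3*, named above to account for this list, had -5.58 ± 0.51. It fell in Treg cells but was higher in ILC210 (52.3 to 123 FPKM) than in ILC2act (5.51 to 10.6 FPKM). In the Treg identity list it was -3.89 for *Lrrc32*, -2.16 for *Gpr83* and 1.98 for *Tnfrsf4*.

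In the effector Treg list the difference was 2.70 for *Ccr8*, 2.59 for *Cxcr6*, 2.21 for *Ccr2*, 1.89 for *Fgl2*, 1.82 for *Itgae*, 1.73 for *Id2*, 1.24 for *Klrg1* and 1.14 for *Prdm1* and for *Cxcr3*. Of other chemokine receptors, *Ccr10* had 2.22 and *Ccr1* 1.47. In the remaining lists of T cell genes it was 2.75 for *Ccl5*, 1.85 for *Penk*, 1.64 for *Tbx21*, 2.07 for *Cd3e*, -1.08 for *Cd96* and -1.56 for *Ifitm3*. *Il10* had 1.35, in cells of both types that were sorted on its reporter.

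In the lists of other cells *Mpo* and *Derl3* had 1.97 and 1.73, while *Beta-s*, *Ly6d*, *Lyz2*, *Pecam1* and *Sdc1* had -4.14, -2.85, -2.08, -1.99 and -1.60. In no list were *Adamdec1*, *Emr4* and *Slc11a1*, with 2.83, 2.79 and 2.37, and *Gsta4*, *Nsg2* and *Lad1*, with -4.57, -3.59 and -3.09. *Mir215* is entered at 8.16, a value that the floor sets, since the locus is listed at 0 in both IL-10- Treg libraries and in all ILC210 libraries, and that measures no size. All ILC2 values of *Nsg2*, *Gpr83*, *Ccr10*, *Cxcr3*, *Tbx21*, *Adamdec1*, *Emr4*, *Mpo* and *Derl3* lay under 1 FPKM, so their differences repeat the change in Treg cells and compare nothing with ILC2. The causes of these differences were not tested, and tissue and cell type cannot be told apart.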

How the results depend on the processing

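Against 98 higher and 50 lower genes, log2(FPKM + 1) gave 162 and 69, log2(FPKM + 0.1) 135 and 60, quantile normalization 118 and 67, equal medians 138 and 64, a mean of at least 5 FPKM 81 and 45, no fold threshold 107 and 56, and the fit of all 10 libraries 186 and 76. No filter on low values gave 4 and 2, with 1478 genes at an unadjusted p under 0.05 and 3 of the 148 called; the cause was not tested. Both per-gene equal-variance tests gave 0 and 0, as did limma without any 1 library (a range of 0 to 0), where the lone library is assumed to vary like the other group. The tag as a replicate block gave 311 and 123, including all 148; deviations of libraries with the same tag from their group means correlated at 0.385 (1 value for 2 groups of 2), and the tags share only a name, so this fit stands beside the unblocked one. *Klrg1* passed with quantile normalization, in the fit of all 10 libraries and with the block, *Lyz2* with both offsets, equal medians and the block, and *Prg2*, *Cd74*, *Sdc1*, *Ly6d* and *H2-Ab1* with the block alone. In the fit of all 10 libraries *Gzmb*, *Ccl5*, *Ifitm1*, *Mir215* and the named short RNA genes with *Amd1* did not pass, 10 in all.

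The count of genes whose change differed from ILC2 was 1010, between 682 and 782 without 1 Treg library, and 433 at a mean of at least 5 FPKM, where fewer genes were tested; log2(FPKM + 1), log2(FPKM + 0.1), quantile normalization and no filter gave 1136, 1047, 1000 and 688. With 2 libraries a group and no read counts, a gene that did not pass is not shown to be equal between the groups.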

Other observations

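Further genes in none of the lists passed. *Ltb4r1*, the leukotriene B4 receptor, had a mean of 67.8 against 20.0 FPKM (log2 1.71, adjusted p = 0.0439), and *Nmur1*, the neuromedin U receptor known from ILC2, at 20.6 and 12.0 against 4.08 and 5.02 FPKM (log2 1.80, adjusted p = 0.0497), both in limma. *Adam8*, a surface protease, was at 39.8 and 29.7 against 12.1 and 10.1 FPKM. *Il18*, a cytokine, was at 23.8 and 17.8 against 8.25 and 7.09 FPKM, and *Asb2*, a ubiquitin ligase subunit, at 94.6 and 67.8 against 22.9 and 23.8 FPKM. *Arnt2*, a bHLH-PAS factor, was at 12.3 and 11.7 against 2.91 and 2.75 FPKM. On the lower side, *St6gal1*, a sialyltransferase, was at 24.9 and 31.2 against 52.7 and 64.7 FPKM and *Itm2a* at 16.6 and 15.7 against 44.1 and 39.8 FPKM. In all 8 the groups did not overlap; these genes were chosen after their values were seen.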
